A study of Mus musculus with 4 samples.

Results

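The genes described here encode the voltage-gated and related potassium, sodium and calcium channels and their auxiliary subunits. They were taken as symbols beginning with Kcn or Cacn, or with Scn, a number and a or b, without antisense or overlapping transcripts, that had at least 20 UMIs (unique molecular identifiers, each one captured transcript) over all cell barcodes passing a quality filter. That rule kept 93 of 133 candidate genes, among 32286 genes in the files. A further gene with a matching symbol was left out by name and is in none of the counts and sums. Kcnc4, with 23 UMIs, lay just inside the limit, and Kcnk4, Cacna1s and Kcng1, with 17, 16 and 16 UMIs, lay just outside it. The members comprised 26 voltage-gated potassium channel subunits, 11 auxiliary potassium channel subunits, 10 inward rectifiers, 9 two-pore-domain channels and 8 calcium- or sodium-activated potassium channels. They further comprised 5 sodium channel alpha and 3 beta subunits, 7 calcium channel alpha1 subunits, 3 alpha2delta, 4 beta and 7 gamma subunits or TARPs.

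Cells of mouse embryonic cerebella at E15.5 were sorted for the red reporter tdTomato and profiled by single-cell RNA-seq (droplets, 3′ tags). The 2 control libraries were Ptf1aCre/+; R26LSL-tdT/+, and the 2 En1/2 CKO libraries were Ptf1aCre/+; En1lox/lox, En2lox/lox; R26LSL-tdT/+. Control embryos therefore carried the Cre and reporter alleles as well, and their listed genotype holds no floxed allele of the transcription factor genes En1 and En2. Cre was driven from Ptf1a, a gene of the progenitors that give rise to the cerebellar inhibitory neurons, so that recombination follows Ptf1a expression, and each library was made from pooled embryos. Nothing in the labels says how the embryos of 1 library differ from those of another. The genotype p-values below therefore measure the spread between these 4 libraries. Those of class, cluster and interaction tests, with the library as a block, measure how much differences within libraries varied.

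Voltage-gated channels are pore-forming proteins that open with a change in membrane potential. Sodium channels carry the upstroke of the action potential, potassium channels repolarise the membrane and set the resting potential, and calcium channels couple depolarisation to transmitter release and gene regulation. Purkinje cells, the output neurons of the cerebellar cortex, and the inhibitory interneurons that surround them acquire these channels as they leave the cell cycle and mature. Auxiliary subunits set the surface density and gating of the pores, and TARPs, which belong to the gamma subunit family, chiefly traffic AMPA-type glutamate receptors.

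Total counts were between 5305154 and 21021428 UMIs per library, and 1166 to 9536 cells were kept. Control 2 stood apart in that only 25.5% of its barcodes passed the filter, against 63.9% to 94.6% elsewhere. Control 1 stood apart in the nuclear RNA Malat1, at 84982 CPM (UMIs scaled to the total of the library or class), against 30998 to 33625 CPM in the other libraries. Any pair of libraries shared 10 to 32 cell barcodes. Cells were clustered without using any channel gene, giving 21 clusters that were named from marker genes. The cells of 2 clusters were called Purkinje-like, 3 interneuron-like and 3 progenitor-like. The progenitor-like class pools cluster 12, named radial progenitor, with clusters 10 and 11, named Ptf1a intermediate progenitor. Over all kept cells En2 stood at 102 and 48.7 CPM in the control libraries and at 30.4 and 15.3 CPM in the mutant ones, and En1 at 110 and 77.9 CPM against 69.3 and 61.8 CPM. Neither passed the edgeR test between genotypes (adjusted p = 0.948 for both), while DESeq2 called En2 (adjusted p = 0.0394). The labels do not name the floxed exons, and 3′ tags from outside them would not check the genotype. Transcripts of the sort marker, listed as TdTom, averaged 531 CPM in Purkinje-like, 603 CPM in interneuron-like and 747 CPM in microglia-like cells.

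Channel transcripts were most abundant in Purkinje-like cells. The 93 genes summed to 2669 and 2276 CPM in Purkinje-like cells of the controls and to 2482 and 2587 CPM in those of the mutants (mean 2503 ± 170, SD, n = 4). Interneuron-like cells had 1766, 1282, 1500 and 1470 CPM in the same order of libraries (mean 1504 ± 199), and progenitor-like cells had 939 ± 108 CPM. The lowest Purkinje-like library was thus above the highest interneuron-like one. Microglia-like cells had the lowest sum, 447 ± 75.9 CPM. An unnamed cluster led by Cnr1 and Pnoc (cluster 1, 368 cells) had 2261 CPM, next to the Purkinje-like cells. Kcna2, a delayed rectifier of axons, was at 134, 127 and 192 CPM there, in control 1, CKO 1 and CKO 2, and was among the genes highest there relative to other cells once the clusters had been made. Of the 93 genes, 39 had their highest mean in Purkinje-like cells among 11 named types, 10 in interneuron-like cells, 9 each in astroglia-like and granule lineage-like cells, 8 in microglia-like cells and 2 in progenitor-like cells. The tally leaves out cluster 1, and no such tally over all genes is given here. It includes members near the floor, such as Kcnu1 at a mean of 2.31 CPM in Purkinje-like cells, where 1 UMI of control 2 counts as 13.2 CPM. A level here is a count of 3′ tags and is compared for the same gene, or the same set, between cells.

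**Figure D1:**
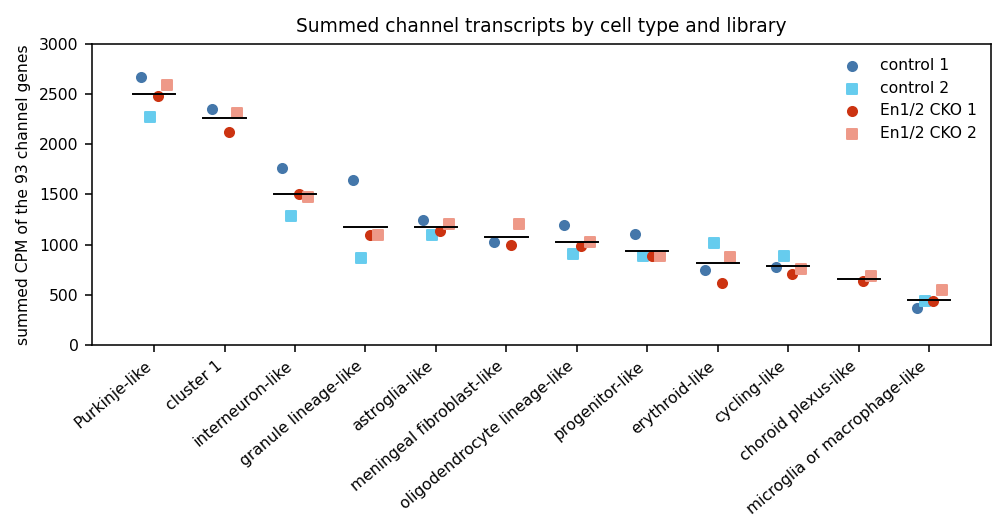
Summed CPM of the 93 channel genes (vertical axis) by cell type or cluster (horizontal axis), 1 point per library with at least 20 cells of the type and a bar at the mean. All 4 Purkinje-like points, from 2276 to 2669 CPM, lie above all interneuron-like points, which reach 1766 CPM.

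Sodium channel alpha subunits summed to 387 ± 14.9 CPM in Purkinje-like cells, and calcium channel alpha1 subunits to 378 ± 81.8 CPM. Voltage-gated potassium channel subunits summed to 497 ± 90.7 CPM in the same cells. In interneuron-like cells the same families summed to 211 ± 22.1, 252 ± 44.2 and 382 ± 45.2 CPM. Sodium channel beta subunits summed to 106 ± 17.8 CPM in Purkinje-like, 16.7 ± 3.45 CPM in interneuron-like and 7.17 ± 3.14 CPM in progenitor-like cells. Alpha2delta subunits followed the same order, at 194 ± 83.8, 68.3 ± 26.6 and 14.4 ± 6.75 CPM. Auxiliary potassium channel subunits did not, with 171 ± 69.6, 68.8 ± 6.22 and 123 ± 9.27 CPM, the interneuron-like cells lowest, and neither did gamma subunits and TARPs, with 300 ± 45.7, 98.1 ± 12.6 and 139 ± 27.7 CPM. Inward rectifiers were lower in Purkinje-like than in interneuron-like cells, at 34.8 ± 14.7 and 53.2 ± 11.7 CPM. They summed highest in meningeal fibroblast-like and choroid plexus-like cells, at means of 493 and 291 CPM, nearly all of it from 1 gene in each.

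Several potassium channel genes stood highest outside the neuronal classes, some of them nearly restricted to 1 cell type. Kcnj13, an inward rectifier of transporting epithelia, was at 324 and 245 CPM in choroid plexus-like cells, which came from the mutant libraries alone, and at a mean of 0.746 CPM over the other types. Kcnj8, a pore subunit of ATP-sensitive potassium channels in vascular mural cells, was at 510, 247 and 655 CPM in the 3 libraries with enough cells of a collagen-rich cluster named meningeal fibroblast-like (cluster 17, 86 cells), in which 7 of 8 mural markers were raised as well. Its mean elsewhere was 0.206 CPM. In microglia-like cells, the two-pore-domain channel Kcnk13 was at 59.6, 57.1, 44.3 and 42.3 CPM, and Kcnk6 at 19.9, 30.8, 30.6 and 27.6 CPM. In CKO 2, 67.1% of these cells were of cluster 18, against 1.61% to 11.4% in the other libraries, and Kcnk13 was at 20.7 CPM in that cluster of CKO 2 and at 53.0 CPM in its cluster 16. Kcnj10, the inward rectifier that glia use to clear extracellular potassium, was at 38.1 ± 7.42 CPM in astroglia-like and 39.5 ± 5.74 CPM in oligodendrocyte lineage-like cells (n = 4 each), against 1.14 CPM in interneuron-like cells. Kcnk10, a two-pore-domain channel gated by lipids and stretch, was at 150, 44.8, 138 and 128 CPM in astroglia-like cells, with control 2 far below the others, and was not restricted to them: it was at 85.3 ± 22.6 CPM in oligodendrocyte lineage-like and 76.0 ± 14.6 CPM in progenitor-like cells. Kcnip3, a calcium-binding auxiliary subunit, was at 73.3 and 71.3 CPM in control and 130 and 134 CPM in mutant oligodendrocyte lineage-like cells, and at 49.3 ± 22.9 CPM in astroglia-like cells. In granule lineage-like cells Kcnk1, a weakly rectifying two-pore-domain channel, was at 160, 48.4, 55.9 and 68.5 CPM, and Kcnj6, a G-protein-gated inward rectifier, at 102, 12.7, 31.2 and 37.4 CPM, both highest in control 1. Kcnj6 was higher still in the unnamed cluster 1, at 91.5, 50.6 and 128 CPM in control 1, CKO 1 and CKO 2, and was at 21.3 to 39.7 CPM in interneuron-like cells. Kcnk1 was also at 35.7 ± 3.78 CPM in Purkinje-like cells. These levels are descriptions with no test.

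**Figure D2:**
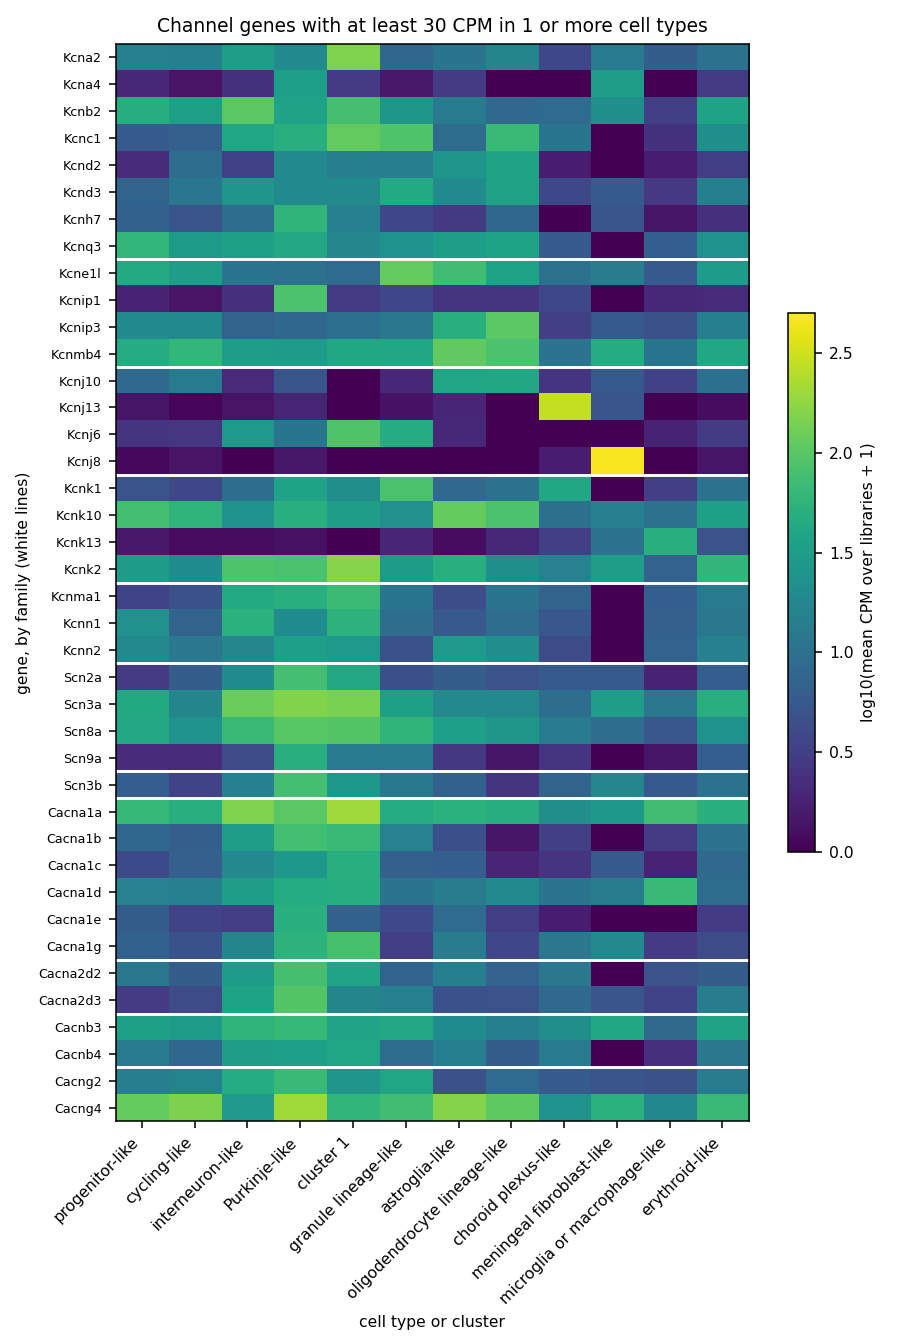
Mean level over libraries, as log10(CPM + 1), of 40 channel genes with at least 30 CPM in 1 or more types (rows, grouped by family with white lines between families) in each cell type or cluster (columns). Kcnj13 is bright only in the choroid plexus-like column and Kcnj8 only in the meningeal fibroblast-like one.

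Levels of channel genes differed between Purkinje-like and interneuron-like cells in both directions. Of 46 members that passed the filter on low counts, 20 were higher and 6 lower in Purkinje-like cells, against a background of 27.2% of 9266 genes called, 14.3% higher and 12.9% lower (edgeR quasi-likelihood test of sums per library, library as a block, adjusted p under 0.05). The members' median log2 difference was 0.51, and that of all genes -0.03. A member that is abundant in one class or cluster alone passes the filter through it. The counts of this and the following class and cluster comparisons therefore describe those tested and not the family. In control 2 the Purkinje-like sum rested on 26 cells, in which a single UMI counts as 13.2 CPM. Without control 2, 34 of 56 tested members were called (27.4% of genes), and without control 1, 24 of 40 (25%). With every sum thinned to the smallest, 3 members passed the filter and 1 was called, beside 13.4% of 1458 genes.

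Among sodium channels, Scn2a, a pore subunit of developing axons, was at 64.1, 65.8, 101 and 78.6 CPM in Purkinje-like cells of control 1, control 2, CKO 1 and CKO 2, and at 18.9 to 20.2 CPM in interneuron-like cells. The groups did not overlap, and the difference was 1.97 ± 0.17 (log2, SE; adjusted p = 1.49e-09). Scn9a, a pore subunit best known from sensory neurons, was at 63.4, 13.2, 35.2 and 81.1 CPM against 2.61, 7.74, 1.33 and 1.07 CPM (4.69 ± 0.33, adjusted p = 1.96e-11). Its value in control 2 came from a single UMI in Purkinje-like cells. The beta subunit Scn3b, which modulates sodium channel gating, was at 66.4, 65.8, 84.4 and 92.1 CPM against 11.6 to 16.4 CPM (2.32 ± 0.18). Scn8a, the pore of the mature axon initial segment, and Scn3a, the main pore subunit of the embryonic brain, did not pass: Scn3a was at 155 CPM in Purkinje-like and 119 CPM in interneuron-like cells.

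Calcium channel genes lay on both sides. Cacna1e, the R-type pore, was at 62.6, 39.5, 39.9 and 59.0 CPM in Purkinje-like cells and at 1.93 to 2.49 CPM in interneuron-like cells, 4.59 ± 0.27 higher on the log2 scale (adjusted p = 7.22e-13). The T-type pores Cacna1h and Cacna1g were higher by 3.06 ± 0.33 and 1.75 ± 0.20, and the N-type pore Cacna1b, which serves transmitter release, by 1.44 ± 0.16, although in control 2 Cacna1b was lower in Purkinje-like than in interneuron-like cells (26.3 and 30.9 CPM). Cacna1a, the P/Q-type pore on which mature Purkinje cells chiefly rely, went the other way, at 153, 65.8, 114 and 74.9 CPM in Purkinje-like and 199, 116, 140 and 149 CPM in interneuron-like cells. It was lower in each of the 4 libraries (-0.56 ± 0.13, adjusted p = 0.00206), and without CKO 2 the call was lost (-0.41, adjusted p = 0.0886). Both alpha2delta subunits tested, Cacna2d3 and Cacna2d2, were higher (1.61 ± 0.17 and 1.30 ± 0.17), Cacna2d3 in 3 of 4 libraries, and none of the 4 beta subunits passed. The TARP Cacng4 was at 230, 237, 170 and 192 CPM against 42.7, 21.3, 20.6 and 28.1 CPM, a difference of 2.71 ± 0.14 (adjusted p = 1.19e-13).

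Among potassium channels the largest difference was in Kcnip1, a calcium-binding auxiliary subunit of A-type channels. It was at 35.1, 197, 46.9 and 65.1 CPM in Purkinje-like cells and at 0 to 2.44 CPM in interneuron-like cells (4.78 ± 0.33, adjusted p = 1.61e-11). The A-type pore Kcna4 was at 29.1, 13.2, 70.3 and 18.4 CPM against 2.27, 0, 2.99 and 0.710 CPM (4.14 ± 0.31), and Kcnd2, an A-type pore that binds Kcnip1, was 3.14 ± 0.37 higher. Kcnh7, of the ERG family of voltage-gated potassium channels, was 2.73 ± 0.23 higher. The members higher in interneuron-like cells, beside Cacna1a, were Kcnb2, Kcnn1, Kcnj6, Kcnj3 and Kcna2. The delayed rectifier Kcnb2 was at 91.3, 96.7, 110 and 104 CPM in interneuron-like and 47.7, 0, 51.6 and 39.3 CPM in Purkinje-like cells (-1.20 ± 0.17, adjusted p = 4.57e-06). The 0 of Kcnb2 in control 2 allows up to 39.5 CPM, the value of 3 UMIs. Kcnn1, a small-conductance calcium-activated channel, was at 82.1, 29.0, 47.5 and 48.3 CPM against 0 to 43.3 CPM, lower in Purkinje-like cells of every library (-1.20 ± 0.19), and its relative Kcnn2 was higher in Purkinje-like cells (0.88 ± 0.21). Kcnj6 was at 39.7, 21.3, 22.9 and 26.3 CPM in interneuron-like and 19.4, 0, 10.6 and 11.1 CPM in Purkinje-like cells (-1.16 ± 0.24), and Kcnj3, its usual partner in the channel, was 0.89 ± 0.32 lower in Purkinje-like cells. Kcna2 was lower in Purkinje-like cells of 3 libraries and higher in control 2 (-1.26 ± 0.25).

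**Figure D3:**
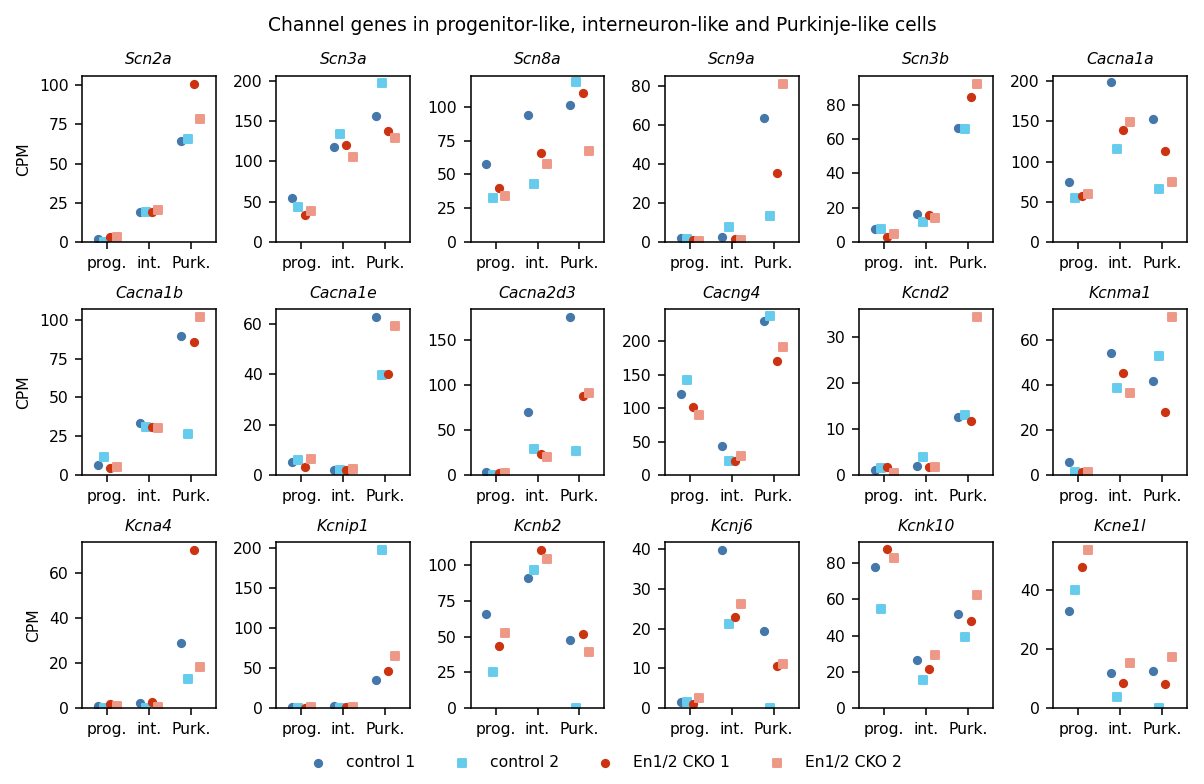
CPM (vertical axis, from 0, scaled per gene) of 18 channel genes in progenitor-like (prog.), interneuron-like (int.) and Purkinje-like (Purk.) cells, 1 point per library. Scn2a, Scn3b, Cacna1e and Kcnip1 stand highest in all 4 Purkinje-like points, Kcnb2 in the interneuron-like ones and Kcne1l in the progenitor-like ones.

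Against progenitor-like cells, most tested members were higher in Purkinje-like cells. Of 44 tested, 32 were higher and 6 lower, where 48.7% of 9692 genes were called, 24.8% higher and 23.9% lower, and the members' median log2 difference was 1.88 against -0.02 for all genes. A member abundant in only one of these classes passes the filter through that class, which bears on its direction. The count therefore describes those tested. The 4 tested sodium channel alpha subunits, the 7 calcium channel alpha1 subunits and both tested alpha2delta subunits were higher. Scn2a was at 1.57, 0, 2.92 and 3.31 CPM in progenitor-like cells, 5.04 ± 0.27 below Purkinje-like cells on the log2 scale (adjusted p = 1.36e-14). Cacna2d3, an alpha2delta subunit that raises calcium channels to the surface, was at 3.67, 0, 1.94 and 2.48 CPM against 175, 26.3, 87.9 and 90.9 CPM (5.48 ± 0.24, adjusted p = 2.13e-16). Kcnma1, the pore of the large-conductance calcium-activated channel, was at 1.36 to 5.76 CPM against 28.1 to 70.0 CPM (4.31 ± 0.36). Kcnip1 and Scn9a differed by 5.96 ± 0.37 and 5.70 ± 0.36, and Kcna4 and Cacna1h by 4.97 ± 0.36 and 4.37 ± 0.44. Without control 2, 47 of 54 tested members were called (49.5% of genes), and without control 1, 35 of 41 (47.7%). With every sum thinned to the smallest, 1 member passed the filter and was called, beside 33.8% of 1484 genes.

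Interneuron-like cells also exceeded progenitor-like cells in 32 of 44 tested members and were lower in 9, where 49.8% of 11240 genes were called, 25.7% higher and 24% lower. The members' median was 1.35 and that of all genes 0.02. The filter acts here in the same way, so this count too describes those tested. Kcnma1 was at 54.0, 38.7, 45.1 and 36.6 CPM in interneuron-like cells (4.41 ± 0.25, adjusted p = 1.54e-08). Kcnj6, at 0.972 to 2.48 CPM in progenitor-like cells, was 4.15 ± 0.27 higher. Kcnc1, a fast delayed rectifier that supports high firing rates, was at 30.9 to 43.3 CPM against 1.48 to 6.81 CPM (2.95 ± 0.18). Cacna2d3, Cacna1b, Kcnd3 and Cacng2 were higher by 3.83 ± 0.26, 2.55 ± 0.21, 2.22 ± 0.21 and 1.92 ± 0.15. Without control 2, 44 of 47 tested members were called (48.1% of genes), and without control 1, 41 of 44 (53.3%).

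Some members were higher in both neuronal classes than in progenitor-like cells without passing the test between the neuronal classes. Cacna1c, an L-type pore, was at 25.8 to 26.8 CPM in Purkinje-like, 13.5 to 23.7 CPM in interneuron-like and 2.48 to 3.67 CPM in progenitor-like cells, and the difference between the neuronal classes was 0.42 ± 0.22 (adjusted p = 0.182). Cacnb3, a beta subunit, was at 50.7 to 74.9, 40.6 to 69.7 and 16.3 to 41.6 CPM, with differences from progenitor-like cells of 0.80 ± 0.19 and 0.82 ± 0.11. Kcnh8, of the ELK family, was 2.17 ± 0.31 and 1.71 ± 0.24 higher than in progenitor-like cells. A call missed between the neuronal classes does not show that these genes are equal there.

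A small set of members was instead highest in progenitor-like cells among the 3 classes. Kcne1l, a single-pass auxiliary subunit, was at 33.0, 40.1, 47.8 and 53.5 CPM in progenitor-like, 3.87 to 15.3 CPM in interneuron-like and 0 to 17.2 CPM in Purkinje-like cells. The progenitor-like values overlapped neither neuronal class, and the differences were -1.83 ± 0.19 for interneuron-like (adjusted p = 3.91e-06) and -1.76 ± 0.27 for Purkinje-like cells (adjusted p = 3.27e-06). Kcnk10 was at 78.1, 54.9, 87.9 and 83.0 CPM in progenitor-like and at most 29.1 CPM in interneuron-like cells (-1.57 ± 0.12), with Purkinje-like cells between them at 39.5 to 62.7 CPM (-0.55 ± 0.17, adjusted p = 0.00755). Kcnmb4, a beta subunit of the large-conductance channel whose pore is Kcnma1, was lower in both neuronal classes, with differences of -0.49 ± 0.12 for interneuron-like and -0.60 ± 0.20 for Purkinje-like cells. So was Kcnq3, a subunit of the slow M-type channel, at 50.5 to 69.8 CPM in progenitor-like cells (-0.60 ± 0.12 and -0.53 ± 0.18). The Purkinje-like calls of Kcnk10, Kcnmb4 and Kcnq3 depended on single libraries: without CKO 1 the adjusted p was 0.0904 for Kcnk10, 0.0619 for Kcnmb4 and 0.0512 for Kcnq3, and without control 1 it was 0.141 for Kcnmb4 and 0.140 for Kcnq3. Cacnb2, a beta subunit, was at 33.5, 23.7, 19.2 and 20.7 CPM in progenitor-like against 5.80 to 11.3 CPM in interneuron-like cells (-1.44 ± 0.18). Cacng4 differed both ways, with interneuron-like cells lower than progenitor-like cells (-1.75 ± 0.15) and Purkinje-like cells higher (0.94 ± 0.14). Among all named types, Kcne1l had its highest mean in granule lineage-like cells (112 CPM) and Kcnmb4 in astroglia-like cells (110 CPM).

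Of the 93 members, 42 passed the filter in none of the 3 comparisons, and their highest mean in any of the 3 classes was 19.3 CPM, for Cacna2d1 in Purkinje-like cells. Of those 42, 9 reached at least 20 CPM in another type. Members with an overlapping gene on the other strand numbered 51.

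Values that moved with these classes are given here. Purkinje markers (14 genes) summed to 3928 to 8459 CPM in Purkinje-like and 2095 to 3046 CPM in interneuron-like cells, and interneuron markers (12 genes) to 1092 to 1895 CPM and 3309 to 3712 CPM. Granule lineage markers (10 genes) summed to 2219 to 3508 CPM in interneuron-like and 539 to 1687 CPM in Purkinje-like cells. Radial progenitor markers (14 genes) summed to 7725 to 19047 CPM in progenitor-like cells and to at most 2986 CPM in the other 2 classes. Erythroid markers (8 genes) were at 26.3 to 3411 CPM in Purkinje-like, 56.1 to 3978 CPM in interneuron-like and 69.8 to 6909 CPM in progenitor-like cells, lowest in control 2 each time. Their part in the channel differences was not tested.

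Listed partners of the channels, ion pumps and transporters were tested in the same fits. Of these, 20 of 45 tested were higher and 3 lower in Purkinje-like than in interneuron-like cells, where 14.3% and 12.9% of all genes were. Slc12a5, the chloride extruder that makes GABA inhibitory, was 4.36 ± 0.36 higher, Dpp10, a partner of A-type channels, 3.45 ± 0.28 higher and Dlg2, a synaptic scaffold, 3.43 ± 0.27 higher. Against progenitor-like cells, 31 of 44 were higher and 4 lower in Purkinje-like cells (24.8% and 23.9% of all genes), and 27 of 41 higher and 6 lower in interneuron-like cells (25.7% and 24%). Unlike the channel genes, these genes were not kept out of the clustering, and a listed calcium release channel is also a Purkinje marker. They could thus help define the classes compared. The filter on low counts acts on them as on members, so these counts describe those tested.

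The start regions of the members were read for short sequence motifs. RefSeq's table for GRCm38.p6 gave promoter windows (250 bases before to 50 after a start) for 67 of the 93 members. The letters CAGCTG, an E-box of the kind bound by basic helix-loop-helix factors such as Ptf1a and read the same on both strands, were in 21 of 67 members (31.3%) and in 18.3% of 27025 genes. By window, 28.0% of 100 member windows and 16.3% of 32851 windows held it. TTCAGCACC (part of the REST site), TGACGTCA (CRE) and the EBF motif were searched on both strands and were in 0 of the 67, against 0.433%, 2.03% and 1.06% of genes. A match describes letters in a window and no binding. The stretches that follow show the E-box in capitals, 5′ to 3′ on the gene's strand, for 4 members that were higher in Purkinje-like than in progenitor-like cells and for Cacnb2, which was lower in interneuron-like than in progenitor-like cells. They were picked after the levels were seen, to show the same letters in members on both sides. None overlaps an annotated exon. Kcnip1 is chr11:33993384-33993443 (-, within the noncoding gene 4930469K13Rik), Cacna2d3 chr14:29722004-29722063 (-), Cacna1b chr2:24763153-24763212 (-), Cacna1d chr14:30353637-30353696 (-, within Cacna1d) and Cacnb2 chr2:14823944-14824003 (+, within Cacnb2).
Kcnip1: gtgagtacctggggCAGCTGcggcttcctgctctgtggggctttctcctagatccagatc
Cacna2d3: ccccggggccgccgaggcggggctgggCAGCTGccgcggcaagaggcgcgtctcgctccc
Cacna1b: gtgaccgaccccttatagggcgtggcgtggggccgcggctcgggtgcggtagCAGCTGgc
Cacna1d: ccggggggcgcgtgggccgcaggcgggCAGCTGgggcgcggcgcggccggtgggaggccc
Cacnb2: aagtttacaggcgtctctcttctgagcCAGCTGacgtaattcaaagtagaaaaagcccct

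Channel levels also differed between interneuron-like clusters. Cluster 15 (led by Igfbp5 and Sez6, 3483 cells) was set against cluster 3 (led by Neurod1, 1097 cells), a comparison chosen after the clusters were seen. Of 27 members tested, 14 were higher in cluster 15 and 1 lower, where 32.8% of genes were called, 17.9% higher and 14.9% lower. Scn8a was at 117, 64.5, 128 and 111 CPM in cluster 15 and at 35.2, 38.8, 50.5 and 31.8 CPM in cluster 3 (2.83-fold higher, adjusted p = 3.93e-08), the lowest value of cluster 15 lying above the highest of cluster 3. Kcnk2, a two-pore-domain channel that sets the resting potential, was at 140 to 186 CPM against 53.3 to 70.4 CPM (1.47 ± 0.17), and Kcnma1 at 83.0 to 90.7 CPM against 27.7 to 55.3 CPM (1.28 ± 0.21). None of these 3 overlapped between clusters. They were picked by largest fold among called members with the same sign in every library, which favours this. The share of all genes without overlap is not given here. Kcnj6, Cacna2d3 and Scn2a were higher by 1.36 ± 0.28, 1.27 ± 0.27 and 1.17 ± 0.32. Cacna1d and Scn3b were higher by 0.94 ± 0.31 and 0.93 ± 0.37, and Kcnmb4 was lower (-0.82 ± 0.30, adjusted p = 0.029). The calls of Cacna1d and Kcnmb4 were lost without control 1, CKO 1 or CKO 2, that of Scn3b without control 2, and those of Kcnj6 and Scn2a without CKO 2. Without CKO 2, 7 of 24 tested members were called (8.99% of genes), and without CKO 1, 9 of 25 (13.6%). DESeq2 called 8 of the 27 (15.2% of genes), and with the sums thinned to the smallest 2 of 3 were called (21.8%). Cells of cluster 3 were deeper (median 3964 UMIs, against 1178 in cluster 15), and Malat1 was at 61307 to 99631 CPM in cluster 15 against 26110 to 64182 CPM in cluster 3. What part depth and nuclear RNA had in this was not tested. The mix of clusters differed between libraries: cluster 15 held 56.5% of interneuron-like cells in control 1 and cluster 3 held 60.2% in control 2.

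**Figure D4:**
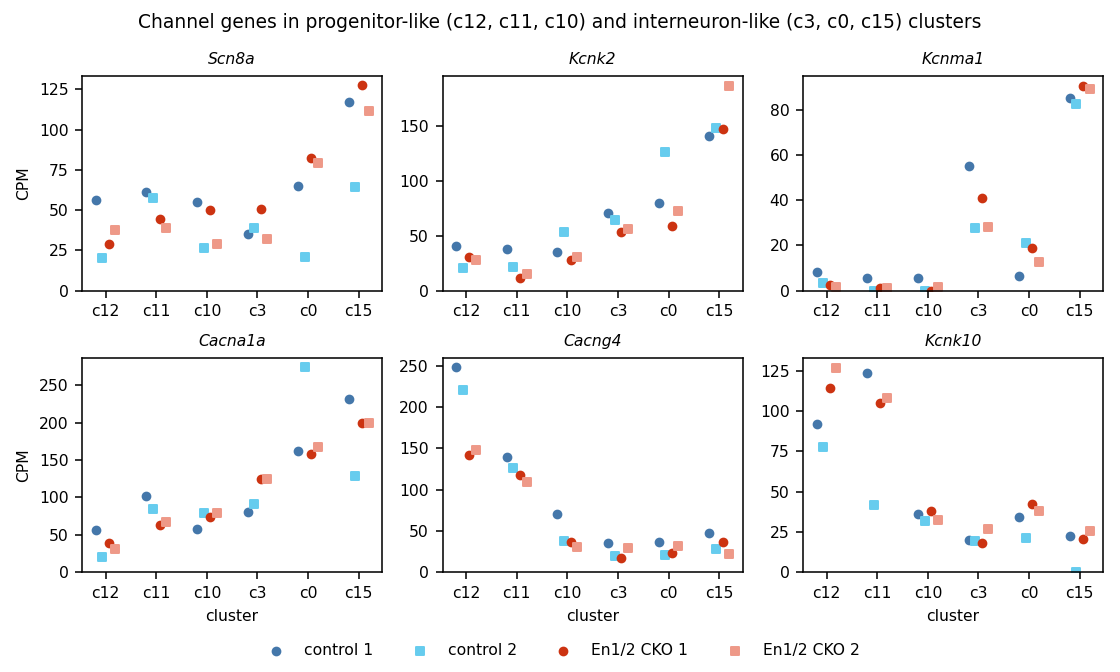
CPM (vertical axis, from 0, scaled per gene) of 6 channel genes in the progenitor-like clusters 12, 11 and 10 and the interneuron-like clusters 3, 0 and 15, 1 point per library. Scn8a and Kcnk2 stand highest in cluster 15 in most libraries, and Cacng4 and Kcnk10 are highest in clusters 12 and 11.

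Within Purkinje-like cells, cluster 8 (led by Snhg11, Cntn5 and neurofilament genes, 779 cells) was set against cluster 2 (led by Nrgn, 1046 cells), also chosen after the clusters were seen, in the 3 libraries with 20 cells of each. Of 38 members tested, 14 were higher in cluster 8 and 2 lower, where 9.95% of genes were called, 6.21% higher and 3.74% lower. Kcnip1 was at 73.4, 111 and 104 CPM in cluster 8 of control 1, CKO 1 and CKO 2 and at 5.30, 18.6 and 6.23 CPM in cluster 2 (3.14 ± 0.33, adjusted p = 3.22e-11). Scn9a was at 108, 84.1 and 120 CPM against 29.1, 13.5 and 21.8 CPM (2.13 ± 0.27). Kcnd2, which also marked Purkinje-like from interneuron-like cells, was 2.36 ± 0.51 higher. Kcnn2, Kcnk1, Cacna1e and Kcnma1 were higher by 1.67 ± 0.32, 1.53 ± 0.33, 1.40 ± 0.26 and 1.37 ± 0.28. Cacna2d3 went against these, at 59.8, 61.1 and 42.6 CPM in cluster 8 and 265, 99.8 and 165 CPM in cluster 2 (-1.82 ± 0.23, adjusted p = 9.35e-09), as did Cacna1a (-0.77 ± 0.21, adjusted p = 0.0072). The Cacna1a call was lost without control 1 (adjusted p = 0.203) or CKO 1 (0.0861), and those of Kcnn2 and Kcnk1 without CKO 1 (0.0509 and 0.0967). Without control 1, 8 of 34 tested members were called (6.85% of genes), and without CKO 1, 7 of 38 (5.42%). With the sums thinned to the smallest, 7 of 24 were called (8.86%). With DESeq2 the count fell to 5 (3.75% of genes), without Kcnd2, Kcnk1, Kcnma1 and Cacna1a among those named. En1 differed in the same direction as Cacna2d3, at 26.9 CPM in cluster 8 and 440 CPM in cluster 2. Cluster 8 held 43.3%, 76.9%, 33.4% and 48.5% of the Purkinje-like cells of control 1, control 2, CKO 1 and CKO 2. The part of this mix in Purkinje-like differences between libraries or genotypes, such as the high Kcnip1 value of control 2, was not tested.

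Between genotypes no channel gene passed the test in any sum. edgeR called 0 of 93 members over all kept cells, where 0% of 14785 genes were called, 0 of 49 in Purkinje-like cells (0.0222% of 9024 genes), 0 of 49 in interneuron-like cells (0% of 10948) and 0 of 41 in progenitor-like cells (0% of 11375). Unadjusted p was under 0.05 for 13, 3, 2 and 3 members in that order. The share of all genes under that unadjusted limit is not given here, so these counts show no excess among members. DESeq2 called 1 member over all kept cells, Kcnj13 (0.358% of genes), and 0 in each of the 3 classes. The members' median log2 difference of mutant over control was -0.29 over all kept cells, 0.10 in Purkinje-like, -0.14 in interneuron-like and -0.29 in progenitor-like sums, beside -0.06, 0.00, -0.04 and -0.05 for all genes.

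The test rested on 2 libraries a group, and control 2 bore on it most. Without control 2, edgeR called 21 of 93 members over all kept cells (19 of them lower in mutants), beside 12.7% of 15282 genes (7.62% lower). It called 3 of 54 in Purkinje-like (1.83% of genes), 11 of 51 in interneuron-like (16.5%) and 7 of 48 in progenitor-like cells (20.2%), with the lone control assumed to vary like the mutants. In progenitor-like cells the members' share was thus below that of all genes. In sums over all kept cells, fewer cells of a type and less RNA per cell cannot be told apart.

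Cacna1d, the L-type pore that opens near the resting potential and paces firing, had both of its mutant values below both control values in each of the 4 sums. Over all kept cells the controls had 33.5 and 29.8 CPM and the mutants 14.9 and 11.6 CPM (-1.32 ± 0.25, adjusted p = 0.948). In Purkinje-like cells it was at 68.6 and 65.8 CPM against 23.4 and 28.3 CPM (-1.40 ± 0.37, adjusted p = 0.932), the second control value resting on 5 UMIs. Progenitor-like cells had 26.2 and 16.3 CPM against at most 9.14 CPM (-1.42 ± 0.31, adjusted p = 0.717), and interneuron-like cells 38.5 and 38.7 CPM against 29.9 and 18.5 CPM (-0.69 ± 0.30, adjusted p = 1). In the interneuron-like cluster 0 alone its difference was 0.023. The 4 sums share their libraries, and the first contains the others, so they are not 4 independent observations. Among 15 single clusters with 20 cells in each library, both mutants were below both controls in 6 and above in 0. The clusters come from the same 4 libraries and are not independent observations either, and no such tally over all genes is given here. Cacna1d was named for this pattern in sums of the same cells, which bears on its tally. The gene lies at chr14:30039939-30491455 (-, GRCm38), away from the floxed genes on chromosomes 1 and 5, and 6 annotated genes overlap it on the other strand. Cacna1d passed without control 2 in all 4 sums, with log2 differences from -1.59 to -0.65, and with no filter on low counts in progenitor-like cells (adjusted p = 0.0251). In the stricter cell filter it passed in Purkinje-like cells, where control 2 was absent (-2.97, adjusted p = 0.000771). Its highest mean among the types was in microglia-like cells, at 42.6, 101, 88.5 and 31.9 CPM with overlapping genotypes. Of these cells in CKO 2, 67.1% were of cluster 18, where it was at 10.4 CPM, and in cluster 16 of the 4 libraries it was at 43.7, 107, 90.7 and 42.6 CPM.

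Of 34 members tested in all 4 sums, 2 (Cacna1d and Cacng7, a TARP) had both mutants below both controls in every sum and 0 above, where 1.35% of 8663 genes lay below and 3.6% above in every sum. Cacng7 was at 7.72 and 9.14 CPM against 5.58 and 4.26 CPM over all kept cells (-0.83 ± 0.32, adjusted p = 0.948), too low for the rule by which genes were named, and is given because its values were seen to share this pattern. Its interneuron-like values lay closest together, at 8.02 and 7.74 CPM against 7.30 and 4.97 CPM, the second control value resting on 4 UMIs. Cacna2d3 in interneuron-like cells was at 69.7 and 29.0 CPM for controls and 22.9 and 20.6 CPM for mutants (-1.36 ± 0.36, adjusted p = 1), and it passed without control 2 (-1.67) and with no filter on low counts (-1.34, adjusted p = 0.00932). In cluster 0 alone the difference was 0.16, and cluster 15, in which Cacna2d3 is higher than in cluster 3, held 56.5% of the interneuron-like cells of control 1 and 24.6% to 34.2% of those of the other libraries. What part this mix had was not tested. Cacna2d2, its relative, in the same cells was at 24.9 and 3.87 CPM against 48.4 and 40.5 CPM (1.17 ± 0.45), and it passed without either control (3.43 without control 1 and 0.85 without control 2). Cacnb4, a beta subunit, was at 19.4 and 26.3 CPM in control and 44.6 and 40.5 CPM in mutant Purkinje-like cells (1.08 ± 0.41, adjusted p = 1), with 2 UMIs behind the second control value. Cluster 8 held 76.9% of the Purkinje-like cells of control 2 and 33.4% to 48.5% of those of the other libraries. The part of that mix was not tested either. Kcne1l, on chromosome X, was at 27.4 and 32.2 CPM against 45.8 and 49.6 CPM over all kept cells (0.62 ± 0.22) and, among 15 single clusters, higher in both mutants in 8 and lower in 1. The same tallies were 4 higher and 4 lower for Cacnb4, 3 and 5 for Cacna2d3 and 9 and 0 for Cacna2d2. The clusters of these tallies share their libraries, so they do not count as replicates. The genes tallied were named because both mutants lay beyond both controls in a sum of the same cells, which bears on their tallies. No such tally over all genes is given here. Kcnd3, an A-type pore, was at 21.5 and 24.7 CPM against 13.7 and 14.2 CPM (-0.78 ± 0.23), Cacng2 at 29.5 and 28.8 CPM against 21.4 and 18.3 CPM (-0.62 ± 0.22), and Scn3a at 81.6 and 55.9 CPM against 49.0 and 44.4 CPM (-0.63 ± 0.24). Cacng4, Cacnb2, Scn3a and Kcnk2 were lower in both mutants in progenitor-like cells, by -0.49 ± 0.21, -0.60 ± 0.26, -0.49 ± 0.23 and -0.48 ± 0.24. Of the progenitor-like cells, the radial progenitor cluster 12 gave 69 of 1391 in control 1 and 117 of 297 in control 2. It gave 436 of 1403 in CKO 1 and 273 of 1273 in CKO 2, and the part of this mix was not tested. The Scn3a difference changed sign with the stricter cell filter (0.059), with doublets kept (0.22) and at Leiden resolution 2 (0.056). Kcnk2 lies on chromosome 1 with the floxed En1 allele, as do 8 other members, and 4 lie on chromosome 5 with En2. For these members an effect of strain DNA linked to the floxed alleles cannot be told apart from one of the deletion.

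Members whose 2 mutant libraries both lay above or below both controls numbered 12 above and 17 below of 93 over all kept cells, where 22.7% of genes lay above and 12.1% below. The counts were 8 and 9 of 49 in Purkinje-like cells (16.4% and 12.7% of genes), 6 and 7 of 49 in interneuron-like cells (18.8% and 13.7%) and 4 and 16 of 41 in progenitor-like cells (21% and 16.5%). Kcnj13, also named after its values were seen, had 0.375 and 0 CPM in the controls and 16.9 and 4.98 CPM in the mutants over all kept cells (5.12 ± 1.01 as fitted, adjusted p = 0.948). The choroid plexus-like cluster, in which it was concentrated, had 0 cells in both controls and 76 and 68 in the mutants, and the 7 choroid plexus markers summed to 57.4 and 31.1 CPM against 13965 and 4356 CPM.

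**Figure D5:**
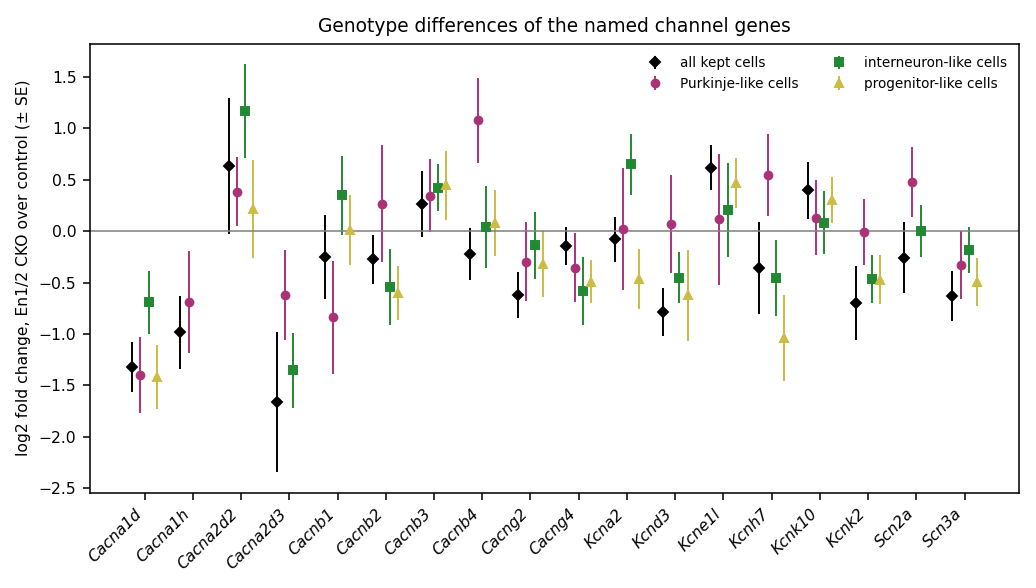
Log2 fold change of En1/2 CKO over control (vertical axis, points with ± 1 SE from edgeR) for the channel genes named in a genotype comparison (horizontal axis), over all kept cells and in each of the 3 classes where the gene was tested. Cacna1d is below 0 in all 4 sums, from -1.42 to -0.69, and no point passed the adjusted test.

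Whether the genotype difference itself differed between Purkinje-like and interneuron-like cells was tested as an interaction. edgeR called 0 of 54 members, where 0.0985% of 10152 genes were called, 0.0591% higher and 0.0394% lower, and 4 had an unadjusted p under 0.05. DESeq2 also called 0. Kcnj3, a G-protein-gated inward rectifier, had the smallest p among members, its genotype difference being more positive in Purkinje-like cells (1.90 ± 0.66, adjusted p = 0.53), from means of 9.67 CPM in Purkinje-like and 19.9 CPM in interneuron-like cells. For Cacna1d the interaction was -0.73 ± 0.38 (adjusted p = 0.992). Among the listed partners and pumps, 0 were called in any genotype comparison, and the unadjusted p was under 0.05 for 4 of 58 over all kept cells, for 2 of 46 in Purkinje-like, for 1 of 45 in interneuron-like and for 3 of 40 in progenitor-like cells. For the unadjusted counts of members and partners, the share of all genes is not given here, so they show no excess.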

How the data were processed

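The authors deposited UMI counts per gene and cell barcode for 4 libraries, from Cell Ranger 6.1.0 (named in the file headers) on the mm10 build, per the submitters' processing notes. Whether intron reads were counted is not given in the sources used here. Barcodes were kept here with 500 or more genes and a mitochondrial share of UMIs of 10% or less. Doublets were ranked with Scrublet and removed at 0.8% per 1000 barcodes in every library. Cells were clustered with scanpy 1.11.5 (2000 variable genes, none of them a channel gene, 30 principal components, 15 neighbours, Leiden resolution 1), and a cluster was named where at least 3 fixed markers were raised 1.5-fold. The classes are therefore rebuilt and may differ from the study's own.

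Counts were summed per library and class of at least 20 cells and tested with edgeR 4.0.16 (TMM, filterByExpr, quasi-likelihood test, Benjamini-Hochberg adjustment over all genes tested, threshold 0.05). Classes were compared with the library as a block, genotypes without one. DESeq2 1.42.0, other size factors, filters, clusterings, depths and each library left out were alternatives. The procedure was also run on simulated data, the outcome of which is not given here and bears on no result above. A total of 0 columns were unmapped. Confidence limits and floors cover counting error only.

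The members and lists were chosen with earlier results of these data known. Named genes were En1 and En2, members with both mutants beyond both controls and at least 20 CPM (up to 6 a genotype comparison by p), up to 8 called members in each direction of a class comparison with the same sign in every library, 2 members per family by level, and 2 per other cell type by level relative to the rest. Other genes named, such as Cacng7 and Kcnj13 in the genotype comparison, the comparisons of single clusters and the printed promoter stretches were chosen after values were seen. Replicate numbers gave no sign of pairing: the correlation of same-numbered deviations was between -0.2351 and 0.0710 in the 4 sums. With 2 libraries a group this cannot show that same-numbered samples were handled apart. Gene positions are from GENCODE vM21 (GRCm38). Some members and partner genes are counted but not reported here by name.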

Additional observations from a re-analysis of the deposited data

Results flagged for a closer look

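Some channel genes had both mutant libraries on one side of both controls in 1 class and on the opposite side in another. Kcnh7 was 0.55 higher (log2) in mutant Purkinje-like cells and at -1.04 in mutant progenitor-like cells. Scn3b was at 0.41 in Purkinje-like and -1.10 in progenitor-like cells. Kcna2 was at 0.65 in interneuron-like cells, against -0.47 for the progenitor-like class. None of these single values passed the adjusted test within its class, and the difference between the 2 classes named was not tested.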

How the results depend on the processing

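Of the values for single genes between classes or clusters, 581 kept their direction and side of the threshold and 45 fell below it. Between genotypes 396 kept both, 37 came to pass and 19 changed sign. Counts of members called moved as follows. The number tested and the share of all genes called also changed between settings, so the counts alone do not measure how stable the members' calls were. Over all kept cells DESeq2 called 1 between genotypes (Kcnj13). The stricter cell filter called 2 in Purkinje-like cells, where control 2 dropped out, and no filter on low counts called 1 in the interneuron-like and 1 in the progenitor-like class. The interaction gave 1 with the stricter cell filter and 1 with doublets kept. No filter on low counts gave 41 for Purkinje-like against interneuron-like and 62 for Purkinje-like against progenitor-like cells, where more members are tested. Sums thinned to the smallest gave 1, 1 and 21 for the 3 class comparisons, 2 for cluster 15 against 3 and 7 for cluster 8 against 2, with fewer members tested. DESeq2 gave 8 and 5 for those clusters; the cause was not tested. In cells of at least 2000 UMIs the summed level was 2285 CPM in Purkinje-like and 901 CPM in oligodendrocyte lineage-like cells.

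Leaving out 1 library gave 0 to 21 called members over all kept cells between genotypes, 0 to 3 in Purkinje-like, 0 to 11 in interneuron-like and 0 to 7 in progenitor-like cells, and 0 to 0 for the interaction. It gave 22 to 34, 35 to 47 and 39 to 44 in the 3 class comparisons, 7 to 16 for cluster 15 against 3 and 7 to 18 for cluster 8 against 2. With the replicate number as a block, 1 member (Kcnj13) was called over all kept cells and 0 in each class, and with the pairing crossed 0 in all 4. Without the library block the 3 class comparisons gave 21, 36 and 39, and the cluster comparisons 11 and 11. Here too the number tested and the share of all genes called changed with the setting.

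Genotype values that changed sign, the cause of which was not tested, were these. With the stricter cell filter, Kcnh7 was at -0.31 and En1 at -1.57 in Purkinje-like cells, and Scn3a at 0.059 and En1 at 0.011 in progenitor-like cells. With doublets kept, Scn3a was at 0.22 and En1 at 0.093 in progenitor-like cells, and with Leiden resolution 2 Scn3a was at 0.056. In cluster 0 alone Cacna2d3 was at 0.16, Cacna1d at 0.023 and En1 at 1.01. Kcnk2 was at 0.13 thinned and 0.19 in cluster 15 alone, and Cacnb3 at -0.026 thinned. In cluster 10 alone Kcne1l was at -0.041 and En1 at 0.31. Leaving out 1 library, En1 ranged from -0.062 to 4.22 and En2 from -1.41 to 0.29 in Purkinje-like cells, and En1 from -0.97 to 0.15 in interneuron-like and from -0.33 to 0.14 in progenitor-like cells.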
